A study of Rattus norvegicus with 24 samples.

Results

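The comparison described here is between rat tibialis anterior muscles trained for 10 days and muscles trained for 2 days. It holds 6 of the 24 samples of the series, the 3 trained muscles of 10 days and the 3 trained muscles of 2 days, taken by their labels and compared across all transcripts. The rats were adult male Wistar rats. The left tibialis anterior, a fast dorsiflexor of the ankle, was trained through an implanted pulse generator that made the dorsiflexors contract once a day against partly co-activated plantarflexors, the design called SpillOver resistance training. The muscles were removed an hour after the last bout, so both groups carried a recent contraction as well as the number of days trained. The right tibialis anterior of each rat was left unstimulated and is called contralateral. Different rats stood at each time point, 3 at each of 2, 10, 20 and 30 days in the samples used here, and the series' design text gives 4 animals per time point. Every rat in the comparison carried the implant, and the contralateral muscle is an untrained muscle of a trained rat and not of a sham-operated rat. Each rat gave 1 trained and 1 contralateral muscle, so the 24 muscles behind the spread in the p-values below come from 12 rats.

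Skeletal muscle fibers are built on myosin heavy chains, and in the rat the fast chains are IIb, IIx and IIa, encoded by Myh4, Myh1 and Myh2, while Myh7 encodes the slow chain. Fibers that work more often usually carry more myoglobin, more mitochondria and a denser capillary bed, and shift from IIb towards IIx and IIa. A fiber that enlarges also needs new ribosomes, chaperones and proteasomes for protein turnover, and more of the basement membrane, the sheet of type IV collagen, laminin and nidogen that wraps each fiber and each capillary. These are background facts and not results of these data.

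Values are rescaled TPM, a length-corrected transcript abundance divided by 1 factor per sample, and differences are on the log2 scale of the value plus 1, 10 days minus 2 days, which understates the change of low transcripts. TPM carry no record of depth, so the precision of single values is not known. The labelled tissue was checked on 11 skeletal muscle markers fixed in a list, of which 10 were in the table under their own symbol, and their summed value lay between 67492 and 70162 at 2 days and between 77932 and 99891 at 10 days.

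The stretch of DNA in front of 4 genes whose transcripts moved or sat beside one that moved, and the stretch shared by a pair of collagen genes that moved together, is shown to tie the values below to a place in the genome. The sequences are RefSeq sequences of the GRCr8 build, given 5′ to 3′ on the strand of the gene, and capitals mark 3 motifs searched on both strands, the E-box CANNTG, the TATA box TATAAA and the GC box GGGCGG. No match overlaps another in the letters printed. Myh4, Myh1 and Myh8 lie side by side in the fast myosin cluster, Mb encodes myoglobin, and Col4a2 and Col4a1 face away from each other from the same interval, shown on the plus strand.
Myh4, chr10:52422048-52422147, plus strand: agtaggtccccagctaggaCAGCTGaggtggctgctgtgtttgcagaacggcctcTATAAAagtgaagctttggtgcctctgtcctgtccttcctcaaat
Myh1, chr10:52384812-52384911, plus strand: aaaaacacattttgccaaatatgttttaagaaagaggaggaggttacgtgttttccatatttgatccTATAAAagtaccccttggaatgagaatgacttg
Myh8, chr10:52462409-52462508, plus strand: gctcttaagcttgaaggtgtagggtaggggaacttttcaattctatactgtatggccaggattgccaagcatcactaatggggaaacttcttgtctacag
Mb, chr7:110647743-110647842, minus strand: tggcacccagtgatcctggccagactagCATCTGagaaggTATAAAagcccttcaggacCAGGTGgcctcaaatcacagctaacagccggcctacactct
Col4a2 to Col4a1, chr16:84885521-84885596, plus strand: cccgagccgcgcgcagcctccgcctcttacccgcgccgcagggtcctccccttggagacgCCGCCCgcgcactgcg

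In the 100 bases before the start, Myh4 held a TATA box and an E-box, and Myh1 held a TATA box. Mb held a TATA box and a pair of E-boxes, and the 100 bases printed for Myh8 held none of the 3 motifs. Over all 27457 RefSeq promoters, 5.95% held the TATA box, 33.7% the E-box and 23.1% the GC box in the same 100 bases. The 76 bases between Col4a2 and Col4a1 held 1 GC box, on the minus strand, and 19.3% of all promoters held one in 76 bases. Of the 156 genes called below, 107 had a promoter in the table, and in 250 bases a TATA box stood in 9.23% of the 65 that were higher at 10 days and in 21.4% of the 42 that were lower, with 6.37% over the genes tested and 13.1% over all promoters. A match is a run of letters and not a bound site.

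From 2 to 10 days the trained muscles lost the transcripts of the fastest myosin and of a pair of fast troponin T forms. They gained myoglobin, carbonic anhydrase III, the enzyme that starts haem synthesis and basement membrane components. Some transcripts of ribosomal proteins, of folding and stress in the endoplasmic reticulum, of tubulins and of amino acid enzymes had lower values. Of 13452 transcripts tested, 161 changed (1.2%) by limma's moderated test at an adjusted p under 0.05, 94 higher (0.699%) and 67 lower (0.498%) at 10 days. They belong to 156 genes, 92 higher and 64 lower, with Lama2 counted by 2 copies that hold the same values. At an unadjusted p under 0.05 there were 1725 (12.8%). With 1 transcript a gene, 0.82% of 11100 genes were called higher and 0.55% lower. At an unadjusted p under 0.05 these shares were 6.81% and 7.03%, and they are the baseline for the gene lists below. The 3 muscles of the 2 groups did not overlap for 158 of the 161, beside 17.1% of all tested transcripts. Many of the calls were small transcripts: 49 of the 94 and 20 of the 67 had a mean under 10 in both groups. The count rests on the spread estimated from all 24 muscles. With the 12 trained muscles alone 10 transcripts passed, with the 6 muscles alone 6 passed, and without single muscles the count ran from 47 to 378, the highest without 2-day replicate 1. In bulk muscle, fewer cells of a type and less RNA per cell cannot be told apart.

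**Figure D1:**
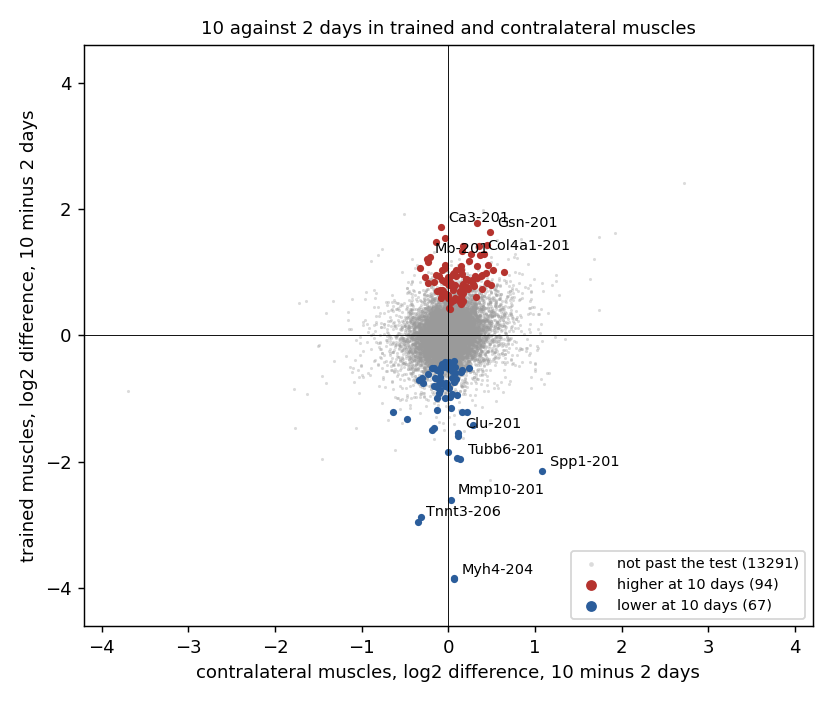
Log2 difference, 10 minus 2 days, of 13452 transcripts in the trained muscles (vertical axis) against the same difference in the contralateral muscles of the same rats (horizontal axis). The 94 higher transcripts (red) and the 67 lower ones (blue) were chosen for their vertical difference and have medians of 0.13 and -0.02 on the horizontal axis. The horizontal difference has the same sign as the vertical one for 68 of the 94 and 36 of the 67.

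The largest fall was in fast myosin. The deposited table labels no transcript Myh1 or Myh2 and places several on the Myh4 symbol, so the transcripts are named here by position on chromosome 10 of the rn6 build, following the gene order Myh3, Myh2, Myh1, Myh4, Myh8 of the RefSeq annotation. Myh4-203, which starts at 53778662 at the place of Myh4 itself, had values of 6378, 3443 and 3200 at 2 days and of 270, 132 and 663 at 10 days. Every 10-day muscle lay below every 2-day muscle, and within the 2-day group replicate 1 stood apart at the high end. The difference was -3.84 (SE 0.58, adjusted p = 0.0012), beside 0.06 in the contralateral muscles. Myh4-204, from the same place, fell by 3.86 (SE 0.55). It also runs across the start of Myh8, so reads of the 2 genes may be split between them.

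As a share of all myosin heavy chain values, transcripts at the Myh4 position made up 56.8%, 41.1% and 36.8% at 2 days and 2.91%, 1.53% and 7.13% at 10 days. The 12 contralateral muscles held 44.7% to 74.0%, so 1 of the 2-day muscles lay within that range, the other two lay below it and all 10-day muscles lay far below it. Transcripts at the Myh1 position made up 36.2%, 50.3% and 52.9% at 2 days and 85.4%, 80.1% and 85.9% at 10 days. The groups did not overlap for either share, and the exact permutation test gave p = 0.1 for both, the smallest that 3 against 3 allow. The values of Myh4-202, the transcript at the Myh1 position, were 5871, 6128 and 6835 at 2 days and 11593, 10434 and 11178 at 10 days, a difference of 0.82 (SE 0.25) that missed the threshold (adjusted p = 0.12). The share at the Myh2 position was 6.36% ± 1.24 (SD, n = 3) at 2 days and 9.17% ± 4.14 (SD, n = 3) at 10 days, and the groups overlapped (exact permutation p = 0.3). The slow chain Myh7 held 0.848% and 1.24%, and the embryonic chain Myh3 0.106% and 0.195%, both with overlap (exact permutation p = 0.5 each). Among the 10-day muscles replicate 2 was highest at the Myh2 position and for Myh7 and Myh3.

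**Figure D2:**
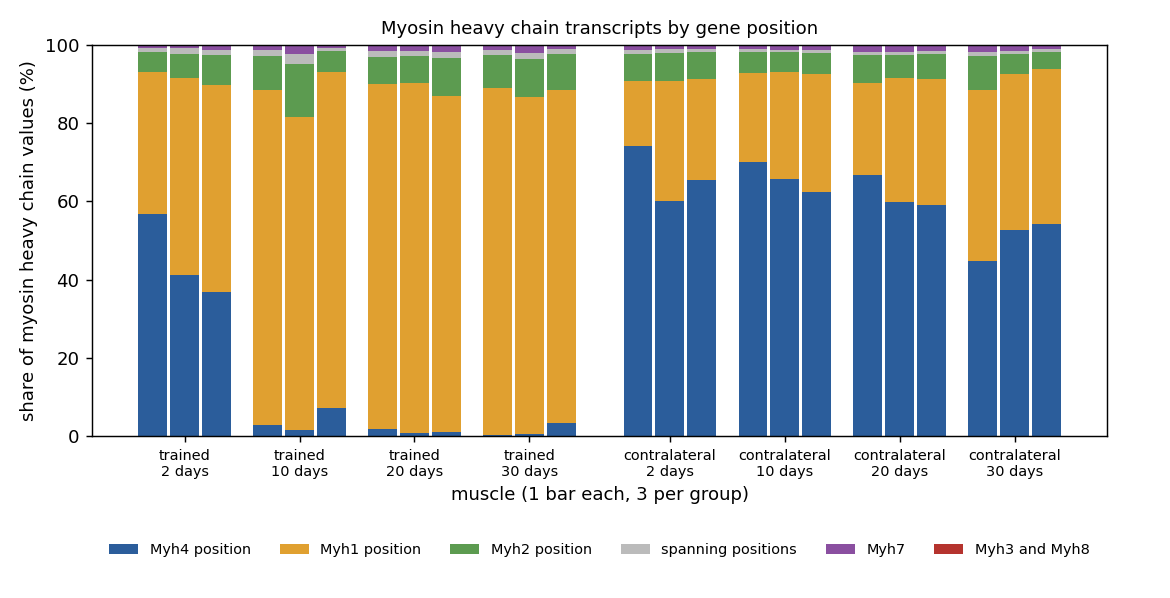
Share of all myosin heavy chain values (percent) in each muscle, 1 bar a muscle and 3 muscles a group, stacked by gene position, for trained muscles (left) and contralateral muscles (right) at 2, 10, 20 and 30 days. The Myh4 position falls from 44.9% on average at 2 days to 3.86% at 10 days in trained muscles, while the contralateral bars stay at 44.7% or more.

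Myh8, the neonatal myosin heavy chain, was higher at 10 days. It had values of 6.67, 4.38 and 6.58 at 2 days and 24.2, 14.8 and 13.9 at 10 days, without overlap (difference 1.42, SE 0.29, adjusted p = 0.018). Its share of the heavy chains was 0.0426% and 0.133%. Myh8 was the 1 call among 19 developmental and denervation genes. Mybpc1, the slow form of myosin-binding protein C, rose from 1310, 934 and 1087 to 1657, 1756 and 1723 (0.64, SE 0.13, adjusted p = 0.013), and the 10-day muscles lay closer together than the 2-day muscles.

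Tnnt3, the fast troponin T that anchors the troponin complex to tropomyosin, changed in part of its transcripts. Tnnt3-206 had values of 701, 588 and 728 at 2 days and 73.2, 116 and 75.0 at 10 days, and a second Tnnt3 transcript, the first of the table, had 418, 338 and 424 and then 44.0, 71.7 and 45.7. Both fell without overlap, by 2.94 (SE 0.48, adjusted p = 0.0026) and 2.87 (SE 0.49, adjusted p = 0.0036). The other 4 Tnnt3 transcripts, Tnnt3-202 to Tnnt3-205, held values between 936 and 4308 in these 6 muscles, with differences of 0.14, 0.15, 0.14 and 0.14 and adjusted p from 0.77 to 0.80. The share of the 2 falling transcripts thus went from 11.1%, 10.6% and 11.8% of all Tnnt3 to 1.33%, 1.83% and 1.29%, beside 15.4% ± 5.12 (SD, n = 12) in contralateral muscles. The sum over all Tnnt3 transcripts overlapped between the groups. All 6 transcripts start at 215666628 of chromosome 1, and they share most of their sequence, so their values rest on how the authors' quantification divided shared reads.

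Of 20 fast-fiber genes tested none passed and of 18 slow-fiber genes 1 passed, Mybpc1, with medians of 0.06 and 0.21 beside -0.00 over all 11100 genes tested. These lists take 1 transcript a gene, the one with the highest mean over all samples, so they hold Myh4-202 and Tnnt3-202 and leave out the Myh4 and Tnnt3 transcripts that fell. The slow-fiber median ran from -0.18 without 10-day replicate 2 to 0.57 without 10-day replicate 3, and the fast-fiber median from -0.05 without 10-day replicate 2 to 0.15 without 2-day replicate 1. Parvalbumin (Pvalb), the calcium buffer of IIb fibers, had values of 1471, 1089 and 977 and then 589, 553 and 330, a difference of -1.29 (SE 0.35) that missed the threshold (adjusted p = 0.076). The calcium-handling list of 24 genes had 1 call, Jph1, which joins the surface membrane to the calcium store and went from 71.7 ± 3.76 (SD, n = 3) to 49.9 ± 3.58 (SD, n = 3), a fall of 0.52.

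Myoglobin and carbonic anhydrase III rose. Mb, myoglobin, the oxygen store of the fiber, had values of 4529, 3962 and 4262 at 2 days and 9463, 12603 and 8052 at 10 days. The lowest 10-day muscle was above the highest 2-day muscle, and the 12 contralateral muscles averaged 6694 ± 962 (SD, n = 12), between the groups. The difference was 1.22 (SE 0.17, adjusted p = 0.00073), against -0.25 in the contralateral muscles. Ca3, carbonic anhydrase III, an abundant cytosolic enzyme of oxidative fibers, had values of 1172, 727 and 778 and then 2796, 2928 and 2843, a rise of 1.71 (SE 0.21, adjusted p = 0.00047). Its 10-day muscles were close together, and its contralateral difference was -0.08.

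Alas1, the enzyme of the first and rate-limiting step of haem synthesis, went from 60.4, 53.1 and 38.8 to 80.3, 99.9 and 111, a rise of 0.93 (SE 0.15, adjusted p = 0.0023). Tfrc, the transferrin receptor that takes up iron, went from 43.4, 26.7 and 16.2 to 60.8, 42.4 and 104, a rise of 1.24 (SE 0.30, adjusted p = 0.042) with overlap between the groups. Alas1 stood in a list of 9 haem synthesis genes written after values were seen, in which it was the 1 gene past the test and the median was 0.10. Alas1 and Tfrc were picked after their values were seen.

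Few nuclear genes of mitochondrial metabolism passed the test. Cox7a1, the muscle form of a cytochrome c oxidase subunit, was the 1 call among 50 nuclear genes of oxidative phosphorylation, from 0.504 ± 0.0802 (SD, n = 3) to 3.20 ± 0.224 (SD, n = 3), a rise of 1.48 at values near the filter. Of these 50 genes 12 were higher and none lower at an unadjusted p under 0.05, where 6.81% of all genes were higher, and their median was 0.22. Fatty acid oxidation had 0 calls among 26 genes by limma, 9 higher and none lower at an unadjusted p under 0.05, and a median of 0.22. Its lowest p values included Fabp3, the fatty acid carrier of muscle, with 101 ± 19.7 and 183 ± 23 (SD, n = 3 each, difference 0.87, adjusted p = 0.088), and Acadm, the medium-chain dehydrogenase, with 241 ± 47.8 and 335 ± 36.4 (0.49, adjusted p = 0.13). Without 2-day replicate 1, the fit with the most calls over all transcripts, 5 of the 26 passed. None passed with any other single muscle left out. Glycolysis and glycogen had 0 calls among 32 genes, with 4 higher and 1 lower at an unadjusted p under 0.05. Of these genes 6 passed without 2-day replicate 1, and none with any other single muscle left out. The 13 mitochondrially encoded mRNAs made up 26.3% ± 1.90 of all values at 2 days and 25% ± 2.11 at 10 days (SD, n = 3 each, exact permutation p = 0.5).

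**Figure D3:**
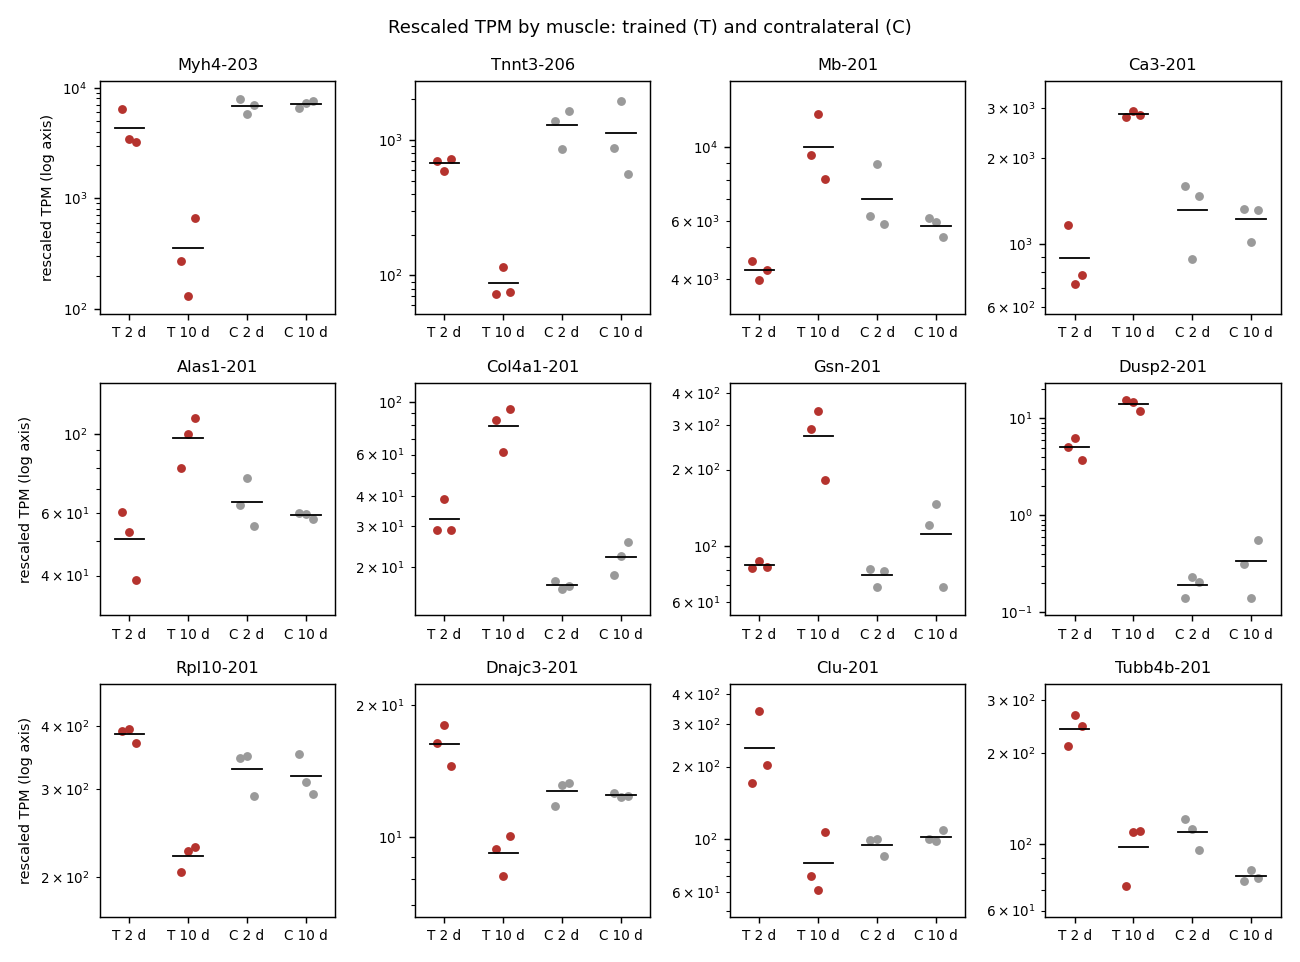
Rescaled TPM (log axis, a different range in each panel) of 12 transcripts in each trained (T, red) and contralateral (C, gray) muscle of 2 and 10 days, 3 muscles a group, with the group mean as a line. The red groups of 2 and 10 days do not overlap in any of the 12 panels, which were picked from the called transcripts, nearly all without overlap.

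Many basement membrane genes rose. Col4a1 and Col4a2, the chains of the main type IV collagen and the pair that shares the interval printed above, had values of 28.8, 38.8 and 28.8 and of 14.5, 18.6 and 14.9 at 2 days. At 10 days Col4a1 had 83.8, 61.3 and 93.2 and Col4a2 had 36.7, 29.0 and 41.5. The groups did not overlap for either, and in both the 10-day replicate 2 was the lowest of its group and the 2-day replicate 2 the highest of its own. The rises were 1.27 (SE 0.18, adjusted p = 0.00075) for Col4a1 and 1.10 (SE 0.22, adjusted p = 0.012) for Col4a2. The contralateral muscles of the same rats gave 0.36 and 0.15, and the differences against the own contralateral muscle were 0.91 and 0.96.

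A list of 24 basement membrane genes, written after values were seen, had 17 genes tested, of which 10 were higher and 0 lower, beside 0.82% and 0.55% of all genes tested. All 17 differences were above 0, with a median of 0.77, and the contralateral median was 0.27. The laminin chains Lama2 and Lamb1, which assemble the sheet on the cell surface, went from 2.94 ± 0.379 to 6.63 ± 2.42 and from 6.68 ± 0.442 to 12.6 ± 1.53 (SD, n = 3 each). The nidogens Nid1 and Nid2, which link laminin to collagen IV, went from 7.31 ± 1.11 to 12.9 ± 2.76 and from 2.59 ± 0.119 to 5.83 ± 1.13. Contralateral differences of Lamb1, Nid1, Nid2 and Lama2 were 0.44, 0.39, 0.33 and 0.20, and against the own contralateral muscle they gave 0.38, 0.34, 0.58 and 0.70, beside rises of 0.82, 0.73, 0.91 and 0.90. Sparc, a collagen-binding glycoprotein, had 229, 311 and 250 and then 623, 420 and 486, a rise of 0.94 (SE 0.19, adjusted p = 0.012), with 0.38 in the contralateral muscles and 0.56 against them. Col15a1, Col18a1 and Col4a4 rose by 0.87, 0.77 and 0.78. The number called among the 17 ran from 1 to 9 with single trained muscles left out and was 2 with the 12 trained muscles alone, while the median stayed between 0.69 and 0.85.

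Over 16 collagen genes tested, 4 were higher (Col4a1, Col4a2, Col15a1 and Col18a1) and none was lower, beside 0.82% and 0.55% of all genes tested. All 4 also stand in the basement membrane list above, so these calls are not a separate result. All 16 differences were above 0, where 5478 of all 11100 genes tested were, and the median was 0.65. The number called ran from 1, without 2-day replicate 3 or 10-day replicate 1, to 5, without 2-day replicate 1, and was 1 with the 12 trained muscles alone. The fibrillar collagens of the interstitial matrix did not pass. Col1a1 had 79.9, 144 and 108 and then 330, 153 and 147 (difference 0.85, adjusted p = 0.40), with 10-day replicate 1 far above the other two, and Col3a1 gave 0.82 (adjusted p = 0.32). In the contralateral muscles Col1a1 and Col3a1 differed by 1.24 and 1.07, more than in the trained ones, so that their differences against the own contralateral muscle were -0.39 and -0.25. The median over the collagens was 0.36 in contralateral muscles and 0.09 against the own contralateral muscle.

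Matrix enzymes had 1 call among 23 genes, Mmp2, the gelatinase that cuts collagen IV, from 8.36, 10.2 and 10.1 to 26.1, 19.6 and 15.6 (1.00, SE 0.25, adjusted p = 0.046). Its contralateral difference was 0.64. Ctsk, cathepsin K, a collagen-cutting protease of the lysosome list (1 of 23 called), went from 3.54 ± 0.205 to 8.29 ± 2.86 (SD, n = 3 each). Spp1, osteopontin, fell from 4.59, 8.92 and 2.58 to 1.20, less than 0.01 and 0.0384, a difference of -2.15 (SE 0.50, adjusted p = 0.033), and its contralateral difference was 1.09.

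Markers of other cell types moved beside these genes. Of 10 fibroblast markers tested 2 were higher, Gsn and Thy1, where 0.82% of all genes tested were. The list median was 0.53 beside 0.39 in the contralateral muscles and 0.01 against the own contralateral muscle. The summed fibroblast markers lay between 178 and 228 at 2 days and between 309 and 525 at 10 days, and Dpp4 was the 1 of 11 under 1 in all of these muscles. In the contralateral muscles of the same rats the sum lay between 130 and 150 at 2 days and between 126 and 266 at 10 days. Gsn, gelsolin, which cuts actin filaments and is also expressed in muscle fibers, had values of 81.7, 87.1 and 82.4 and then 290, 342 and 182, and rose by 1.63 (SE 0.30, adjusted p = 0.0076). Its contralateral difference was 0.48. Thy1, a surface protein of fibroblasts, had 2.14, 5.90 and 3.19 and then 14.1, 7.07 and 9.96, a rise of 1.29. The part of fibroblasts in the matrix values was not tested.

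Endothelial markers, 11 tested, had 1 call, Cdh5, the cadherin of vessel junctions, where 0.82% of all genes tested were called higher. Their median was 0.39 beside 0.01 in the contralateral muscles. Cdh5 had values of 13.4, 11.5 and 12.8 and then 18.3, 17.6 and 32.5 (0.76, SE 0.19, adjusted p = 0.048). The summed endothelial markers lay between 69.7 and 72.7 at 2 days and between 82.1 and 134 at 10 days, with 10-day replicate 3 the highest. Apln, the peptide apelin, which sprouting capillary tips make, went from 0.958, 0.896 and 0.670 to 3.60, 2.52 and 6.20 (1.41, SE 0.23, adjusted p = 0.0031), and Cd93, an endothelial surface receptor, from 4.69, 3.16 and 3.58 to 10.4, 5.94 and 18.9 (1.29, SE 0.32, adjusted p = 0.048). Replicate 3 was the highest 10-day muscle in all 3 of these genes. Cav1 and Cavin2, which form caveolae, abundant in endothelium and fat, rose by 0.71 and 0.69. Fabp4, a fatty acid carrier of fat cells and capillaries, rose by 0.81 and was the 1 call of 6 adipocyte markers tested, beside the same 0.82%. Apln, Cav1 and Cavin2 were picked after their values were seen, and Cd93 was named for the size of its change.

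Immune markers did not pass. None of 13 macrophage markers and none of 7 MHC class II genes was called, 1 macrophage marker was higher and 1 lower at an unadjusted p under 0.05, and the summed macrophage markers lay between 76.6 and 194 at 2 days and between 65.7 and 141 at 10 days, with Cx3cr1 under 1 in all of these muscles. The macrophage median was 0.12 in trained muscles, 0.49 in contralateral muscles and -0.45 against the own contralateral muscle. All 7 MHC class II differences were below 0 in trained muscles, with a median of -0.27, beside 0.51 in contralateral muscles and -0.72 against the own contralateral muscle. Without 10-day replicate 3 the trained MHC class II median was 0.03, and the macrophage median ran from -0.20 to 0.34 with single muscles left out. The 4 neutrophil markers in the table were under 1 in every muscle. Il1rl1, the interleukin-33 receptor, was the 1 call of 20 genes of the interleukin 6 response list, from 1.69 ± 0.694 to 3.19 ± 0.924 (SD, n = 3 each). Picked after its values were seen, Mmp10, a stromelysin that is low in resting muscle, had 1.55, 20.3 and 7.26 at 2 days and 0.195, 0.689 and 0 at 10 days, and Il1r2, the decoy interleukin-1 receptor, had 1.02, 8.54 and 3.54 and then 0.154, 0.245 and 0.0753. Both were lower at 10 days, by -2.60 and -1.94, and in both 2-day replicate 2 was the highest and replicate 1 the lowest of its group.

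Some transcripts of protein synthesis were lower at 10 days. Of 67 cytoplasmic ribosomal protein genes 4 fell (Rpl3, Rpl4, Rpl5 and Rpl10), beside 0.55% of all genes tested. At an unadjusted p under 0.05, 26 were lower and none higher, where 7.03% of all genes were lower, and the median was -0.31. The contralateral median was -0.13. Rpl10, a protein of the large subunit, had values of 391, 395 and 371 and then 205, 226 and 230, a fall of 0.81 (SE 0.13, adjusted p = 0.0020) between tight groups. Rpl3, the general form of a protein for which muscle has its own copy, had 40.8, 79.9 and 66.3 and then 33.1, 18.4 and 27.0, a fall of 1.21 (SE 0.28, adjusted p = 0.037). Rpl5 and Rpl4 fell by 0.67 and 0.61. Ribosomal protein genes have near-identical copies in the genome, and how reads were split among them is not given in the sources used here. Single muscles left out gave 1 to 8 calls and medians from -0.42 to -0.26.

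Of 35 genes of ribosome biogenesis 1 fell, Nop16, a nucleolar protein, from 23.4 ± 3.5 to 14.3 ± 0.657 (SD, n = 3 each, a fall of 0.67), beside 0.55% of all genes tested. At an unadjusted p under 0.05, 14 were lower and none higher, where 7.03% of all genes were lower. The median was -0.28 beside 0.01 in contralateral muscles. Genes of aminoacyl-tRNA synthesis and translation factors had 0 calls among 20 and a median of -0.15. All 30 proteasome genes tested had differences below 0, with a median of -0.26 and a contralateral median of 0.04. At an unadjusted p under 0.05, 12 were lower, beside the same 7.03%. By the adjusted test 1 was called, beside the same 0.55%, Psmd11, a subunit of the regulatory lid. Psmd11-202 had 32.7, 81.9 and 64.0 and then 24.4, 21.5 and 15.8, a fall of 1.41 (SE 0.25, adjusted p = 0.0048), while the other Psmd11 transcript differed by -0.32 (adjusted p = 0.43). The share of Psmd11-202 in all Psmd11 went from 68.3% ± 4.29 to 49.9% ± 3.84 (SD, n = 3 each), beside 51.5% ± 6.39 (SD, n = 12) in contralateral muscles.

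Some genes of a list of folding and stress in the endoplasmic reticulum also fell. In a list of 27 tested, written after values were seen, 4 were lower (Atf4, Dnajc3, Ficd and Sec63), beside 0.55% of all genes tested. At an unadjusted p under 0.05, 13 were lower and none higher, where 7.03% of all genes were lower. The median was -0.29 beside -0.01 in contralateral muscles. Atf4, the transcription factor of the integrated stress response, had 259, 326 and 268 and then 175, 210 and 182, a fall of 0.58 (SE 0.12, adjusted p = 0.017) to values under the contralateral mean of 238 ± 20.1 (SD, n = 12). Dnajc3, a co-chaperone of the reticulum that also inhibits the kinase PERK, had 16.4, 18 and 14.5 and then 9.38, 8.12 and 10.1, a fall of 0.76 (SE 0.13, adjusted p = 0.0036). Hspa5, the main chaperone of the reticulum, gave 117 ± 16.7 and 84.0 ± 2.60 (SD, n = 3 each, difference -0.46, adjusted p = 0.12). Hsp90b1, Calr, Canx, Pdia3, Pdia4 and Pdia6 of the same list were not called either.

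Heat shock and load-responsive genes spread widely among the 2-day muscles, where the summed heat shock genes were 7151, 15619 and 11704 and the summed load-responsive genes 8055, 15754 and 13012. Among 23 heat shock genes 7 were lower at an unadjusted p under 0.05, where 7.03% of all genes were lower. By limma's adjusted test 1 was higher, beside 0.82% of all genes tested. It was Hspb6, a small heat shock protein of muscle, from 1319, 1254 and 1451 to 2432, 3186 and 1826 (0.85, SE 0.21, adjusted p = 0.048). Another small one, Cryab, had 2064, 6583 and 4913 and then 1810, 2627 and 1518 (difference -1.07, adjusted p = 0.074). None of 16 load-responsive ankyrin and LIM genes passed. Ankrd1, an ankyrin protein that stretch induces, had 379, 2670 and 1641 and then 321, 423 and 103, beside 10.5 ± 7.44 (SD, n = 12) in contralateral muscles (difference -2.29, adjusted p = 0.096). In Cryab, Ankrd1 and Tubb6 the 2-day replicate 1 was far below the other two 2-day muscles. Without it 5 of the 16 load-responsive genes passed, all lower, in the fit with the most calls over all transcripts. None of the 16 passed with any other single muscle left out.

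Tubb6 and Tubb4b, beta-tubulins that build microtubules, fell. Tubb6 had values of 38.3, 156 and 110 and then 21, 30 and 16.2, a fall of 1.95 (SE 0.37, adjusted p = 0.0084), and Tubb4b had 210, 266 and 247 and then 72.6, 109 and 111, a fall of 1.32 (SE 0.22, adjusted p = 0.0027). For both the groups were apart. Tubb4b also differed by -0.48 in the contralateral muscles. Of 28 immediate early genes 1 fell, Jun, a subunit of the AP-1 factor, from 156, 137 and 219 to 93.1, 106 and 62.1 (a fall of 0.97, SE 0.23, adjusted p = 0.041), and 3 others were higher at an unadjusted p under 0.05. Of 25 genes of membrane repair and the cytoskeleton Tubb6 and Dysf fell, and Dysf, dysferlin, which reseals the fiber membrane, went from 63.3 ± 18.6 to 36.4 ± 5.32 (SD, n = 3 each).

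The enzymes Glul and Gpt2 fell, while Got1, Got2 and Gpt, which also transfer amino groups, gave 0.43, 0.32 and 0.37 without passing after adjustment. Glul, glutamine synthetase, had 231, 240 and 243 and then 136, 139 and 102, a fall of 0.93 (SE 0.17, adjusted p = 0.0068). Gpt2, the mitochondrial alanine transaminase, had 33.4, 25.9 and 31.8 and then 15.7, 13.8 and 14.6, a fall of 0.99 (SE 0.17, adjusted p = 0.0054). The groups did not overlap for either gene, and the contralateral means were 299 ± 46.2 for Glul and 41.7 ± 6.65 for Gpt2 (SD, n = 12), above both trained groups. Ddah1, which breaks down an inhibitor of nitric oxide synthesis, fell by 1.18, and Uck2, a uridine and cytidine kinase, by 1.15 from a 2-day group that spread from 6.72 to 25.2. Gstm7-202, a glutathione transferase, fell by 1.5 (SE 0.21, adjusted p = 0.00075), from 30.7 ± 2.99 to 10.2 ± 0.897 (SD, n = 3 each). Clu, the extracellular chaperone clusterin, had 171, 340 and 203 and then 70.4, 61.5 and 107, a fall of 1.55 (SE 0.22, adjusted p = 0.00075). Rbm3, an RNA-binding protein that cold induces, fell by 1.21, and its contralateral difference was -0.63.

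Signalling genes among the largest rises were Igf2, Dusp2 and Cxcl14. Igf2-202, insulin-like growth factor 2, had values of 3.82, 5.19 and 7.90 and then 20.7, 20.6 and 12.9, a rise of 1.54 (SE 0.33, adjusted p = 0.025), beside -0.04 in contralateral muscles. It was the 1 call among 22 growth factor genes. Dusp2, a phosphatase that switches off MAP kinases, had 5.06, 6.33 and 3.74 and then 15.5, 14.6 and 12 (1.33, SE 0.21, adjusted p = 0.0019), where the contralateral mean was 0.198 ± 0.147 (SD, n = 12). Cxcl14, a chemokine, rose by 1.04, with a contralateral difference of 0.51. Tceal5 and Tmem132a, for which no role is given here, rose by 1.06 and 1.11. Of 11 polyamine genes 1 rose, Oaz2, an antizyme that inhibits ornithine decarboxylase, from 32.5 ± 2.27 to 47.5 ± 2.63 (SD, n = 3 each), and Odc1, the decarboxylase itself, gave 31.7 ± 1.62 and 23.1 ± 3.10 (difference -0.44, adjusted p = 0.16).

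Cell cycle (20 genes tested), satellite cell (11), atrophy ligase (17), branched-chain amino acid (20), mitochondrial biogenesis (20), antioxidant (18), fiber-type regulator (22) and clock (20) genes had 0 calls by limma, as had the markers of pericytes (10), Schwann cells (6), red cells (2) and lymphocytes (1). Without the markers these lists hold 146 genes, of which 15 were higher (10.3%) and 11 lower (7.53%) at an unadjusted p under 0.05, beside 6.81% and 7.03% of all genes, and their medians lay between -0.20 and 0.12.

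**Figure D4:**
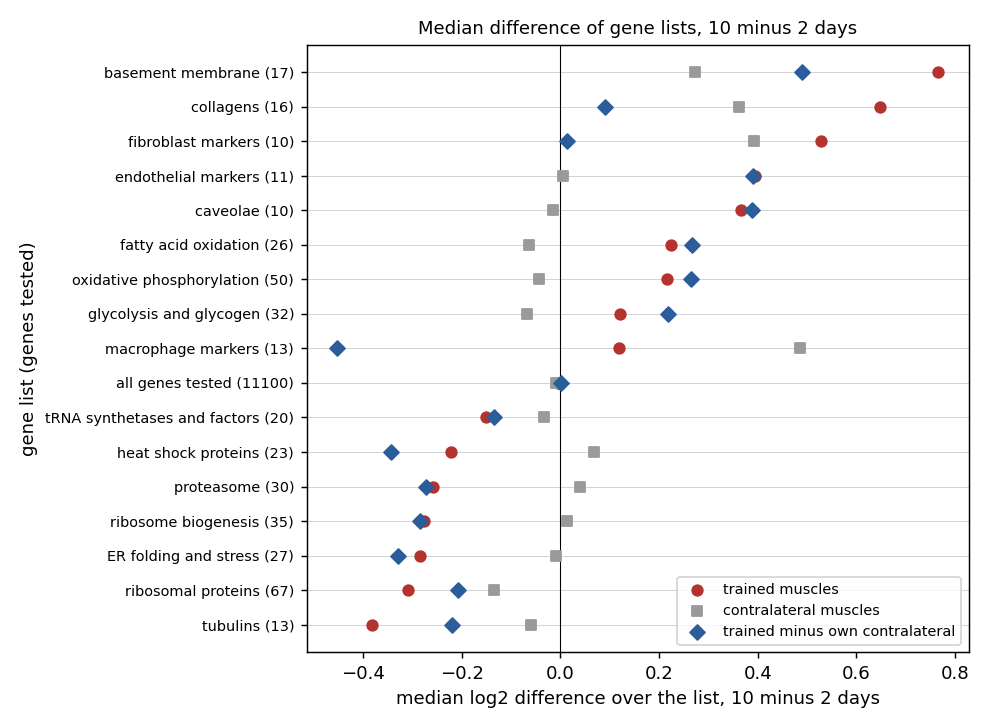
Median log2 difference, 10 minus 2 days, over 16 gene lists and over all genes tested, in trained muscles (red circles), in contralateral muscles (gray squares) and for trained minus own contralateral (blue diamonds), with the number of genes tested in brackets. Basement membrane stands highest at 0.77 and tubulins lowest at -0.38 in trained muscles. These lists and those of caveolae and endoplasmic reticulum (ER) folding and stress were written after values were seen. Their places in the ranking therefore follow in part from how they were chosen. For collagens, fibroblast and macrophage markers the contralateral median is 0.36, 0.39 and 0.49.

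The 94 transcripts that rose and the 67 that fell were also placed against the 12 contralateral muscles. Of the 94, 22 were above and 18 below the contralateral muscles at 2 days, and 76 were above and none below at 10 days. Of the 67, 43 were above and 3 below at 2 days, and 6 were above and 26 below at 10 days. Over all tested transcripts 22.9% differed from the contralateral muscles at 2 days and 22.8% at 10 days. These counts describe transcripts chosen for their difference between the same trained muscles, and both share the contralateral muscles. The difference of Mb from the contralateral muscles went from -0.64 to 0.57, and that of Ca3 from -0.55 to 1.16. Col4a1 went from 0.77 to 2.04, Clu from 1.20 to -0.35 and Glul from -0.31 to -1.24.

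The muscles trained for longer, from other rats, were set beside the same 161 transcripts. The 94 higher transcripts had medians of 0.87 at 10 days, 0.68 at 20 days and 0.54 at 30 days, each against 2 days, and the 67 lower ones had -0.76, -0.78 and -0.78. The transcripts were chosen for their difference at 10 days, so the 10-day medians lean away from 0. A smaller median at 20 or 30 days therefore cannot be read as a decline, and the same holds for the medians against 10 days. These comparisons share the 2-day muscles. Against the 10-day muscles, which they also share, the medians were -0.12 and -0.18 for the higher set and -0.07 and 0.01 for the lower set at 20 and 30 days. Mb was 10040 ± 2330 at 10 days, 11079 at 20 days and 10437 at 30 days. Over all tested transcripts 3 passed between 20 and 10 days (0.0223%) and 273 between 30 and 10 days (2.03%). Of the transcripts with means in this paragraph none passed at 20 days, and Tubb4b, Dusp2 and Col4a1 passed at 30 days, all lower than at 10 days. Transcripts named elsewhere also passed by limma against 10 days. Il1rl1-202 differed by -1.37 at 20 days (adjusted p = 0.00022) and by -1.76 at 30 days (adjusted p = 2.1e-06). At 30 days Uck2-203 differed by -1.12 (adjusted p = 0.040), and Gstm7-202 was higher again, by 0.89 (adjusted p = 0.028). Means at 10, 20 and 30 days were 97.5, 47.0 and 42.8 for Tubb4b (adjusted p = 0.064 and 0.0058 against 10 days), 14, 6.82 and 2.38 for Dusp2 (0.062 and 2.8e-06) and 79.4, 67.1 and 43.2 for Col4a1 (0.83 and 0.015). They were 355, 98.8 and 119 for Myh4-203 (0.38 and 0.064), 3.20, 5.53 and 6.14 for Cox7a1 (0.26 and 0.054), 2856, 2871 and 1771 for Ca3 (1.00 and 0.069) and 18.1, 11.6 and 11 for Igf2-202 (0.70 and 0.29).

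**Figure D5:**
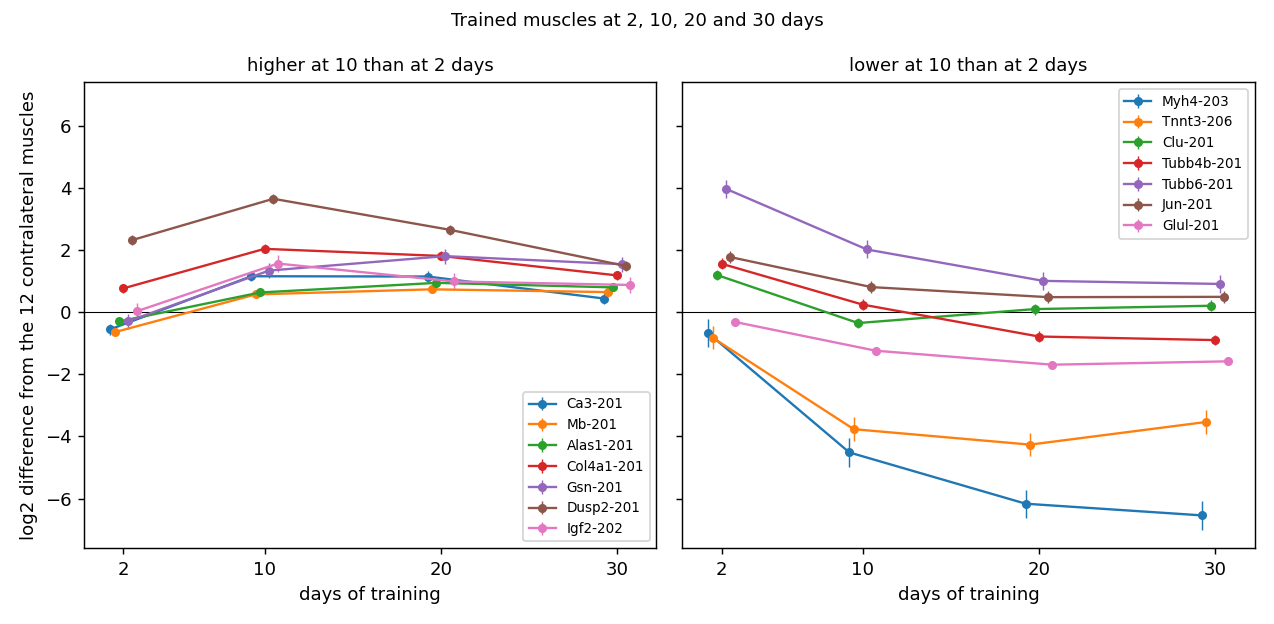
Log2 difference of trained muscles from the 12 contralateral muscles (mean and SE from the fit, 3 muscles a time point, different rats at each) at 2, 10, 20 and 30 days, for 7 transcripts higher (left) and 7 lower (right) at 10 than at 2 days. Myh4-203 reaches -4.52 at 10 days and -6.54 at 30 days, and Dusp2 peaks at 3.65 at 10 days.

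The contralateral muscles of the same rats show what differed between the 2 sets of rats in a muscle that was not trained. There 7 transcripts passed (0.052%), and 607 (4.51%) at an unadjusted p under 0.05. Arntl, Nfil3, Pdk4, Wsb1 and AABR07044759.1 were higher and Dbp was lower at 10 days. Arntl and Dbp belong to the circadian clock and its output, and Pdk4 restrains the use of glucose. Arntl had 2.68, 4.70 and 1.90 at 2 days and 9.83, 13.5 and 13.4 at 10 days in contralateral muscles (1.74, SE 0.21, adjusted p = 0.00042), and differed by 0.40 in the trained ones (adjusted p = 0.77). Pdk4 differed by 1.92 in the contralateral muscles and by 1.62 (SE 0.49, adjusted p = 0.11) in the trained ones, and Dbp by -3.70 and -0.88. Nfil3, Wsb1 and AABR07044759.1 differed by 0.35, 0.45 and -0.02 in the trained muscles. None of the 7 was among the 161. At an unadjusted p under 0.05 by limma, 9 of the 94 higher transcripts differed in the contralateral muscles, all 9 in the same direction. Of the 67 lower ones 5 did, 4 of them in the same direction.

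With each trained muscle set against the contralateral muscle of its own rat, and with animal as a block, 3 transcripts passed (0.0223%) and 1070 (7.95%) at an unadjusted p under 0.05. Among the 161, this comparison, which shares the trained muscles, had medians of 0.72 for the 94 and -0.73 for the 67, and 1 of them passed, Ca3, at 1.79 (SE 0.24, adjusted p = 0.046). Mb gave 1.46, Myh4-203 -3.90 and Clu -1.66, without passing after adjustment.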

How the data were processed

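RNA of 24 tibialis anterior muscles was sequenced by the authors after poly-A enrichment with a directional kit. Per the study's methods the reads were trimmed, aligned to Rnor_6.0 (rn6) with STAR in Partek Flow and quantified to Ensembl transcripts. The strand setting and the division of shared reads are not given in the sources used here. The authors deposited TPM-type values for 20027 transcripts that add up to 634431 in every sample, although the methods and the submitters' processing notes name median-of-ratios normalization (DESeq2). They keep no depth. A second deposited table holds the authors' own comparisons and was not used. Columns with no sample numbered 0, and 0 of 276 pairs of libraries held identical values.

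A median-of-ratios factor (0.778 to 1.14, from 16230 transcripts above 0 in all samples) was divided out of each sample, and the values were filtered to at least 1 in at least 3 samples, which left 13452 transcripts, and fitted as log2(value + 1) with limma 3.58.1 in R 4.3.3. The fit held 5 groups, the 12 contralateral muscles and 4 trained groups of 3, as in the study. The contrast was 10 minus 2 days of training, with Benjamini-Hochberg adjustment over all transcripts and a threshold of 0.05. A fit with 8 groups gave the contralateral contrast, and the same with animal as a block gave trained minus own contralateral, the pairing coming from the labels of each rat. Within a rat the deviations of its muscles from their group means correlated at r = 0.03 to 0.27. Shares were compared with a two-sided exact permutation test, for which the smallest p with 3 against 3 is 0.1. The fit was run on simulated normal values with 1 spread per transcript in all groups. Those runs cannot show how the fit behaves where trained and contralateral muscles differ in spread. Tables were made with Python 3.11.15, numpy 2.4.6, pandas 2.3.3 and scipy 1.17.1, and plots with matplotlib 3.10.9.

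Genes were named by rule: the 14 largest rises and 14 largest falls among called transcripts that averaged 10 or more in one of the groups and did not overlap, 1 per gene; every called member of a gene list; up to 4 members with the smallest p in a list described; and all myosin heavy chains at a mean of at least 1. A gene in a list is its transcript with the highest mean. The members, lists and tests were chosen with earlier results of these data known. Written after values were seen were 7 lists (basement membrane, haem synthesis, tubulins, endoplasmic reticulum folding and stress, amino acid nitrogen, caveolae and imprinted genes). Alternatives were the values as deposited, other filters, pseudocounts and thresholds, fewer or more groups, an intensity trend, replicate blocks, sums per gene and each muscle left out in turn. Promoters are RefSeq sequences of GRCr8, which is not the build of the files, and were matched by symbol only. The values of 1 transcript, which stayed in every fit and count, are not reported here.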

Additional observations from a re-analysis of the deposited data

Results flagged for a closer look

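The change from 2 to 10 days differed between trained and contralateral muscles, by the test of that difference with animal as a block, for 3 transcripts, of which 2 are given here as values. Fcgr2a-203, an antibody receptor of phagocytes, gave -1.87 (SE 0.23, adjusted p = 0.023), from 1.51, 3.86 and 3.47 to 0.864, 0.534 and 0.0417 in trained muscles and from 0.0956, 0.758 and 0.535 to 1.89, 0.777 and 0.542 in contralateral muscles. Between the trained muscles alone Fcgr2a-203 did not pass (-1.40, adjusted p = 0.083). Ca3, described above, gave 1.79 (SE 0.24, adjusted p = 0.046). Groups of 3 muscles are too small for a formal check of single outlying samples. Over the tested transcripts, the root mean square log2 difference between trained muscles was 0.40 to 0.53 within groups and 0.44 to 0.58 between groups. For 2-day replicate 1 it was 0.53 and 0.44 to replicates 2 and 3 of 2 days. To the 10-day muscles it was 0.47, 0.48 and 0.44.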

How the results depend on the processing

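Every called transcript named in the text kept its direction under every alternative in which it was tested, while the number of calls moved widely. Of 161 calls (94 higher, 67 lower), a pseudocount of 0.1 left 95 (48 higher), and the same on the values as deposited, an alternative added after seeing the data, left 76 (34 and 42). A filter on a mean of at least 10 gave 57 higher and 112 lower, so the split between directions turned with the filter. The values as deposited gave 113, no filter 186, 8 groups 145, an intensity trend 188 and sums per gene 205. With the 12 trained muscles alone 10 passed (9 and 1) and with the 6 muscles alone 6 (2 and 4). At an adjusted p under 0.01 there were 39 (17 and 22), and at an unadjusted p under 0.01 683 (343 and 340). With single trained muscles left out the count ran from 47 to 378, the higher ones from 22 to 147 and the lower ones from 25 to 231. It was 378 without 2-day replicate 1, 60 without 2-day replicate 2, 47 without 2-day replicate 3, 47 without 10-day replicate 1, 120 without 10-day replicate 2 and 88 without 10-day replicate 3. The cause of these shifts was not tested, and the fits on fewer muscles have fewer samples behind the spread. The muscles also differed in spread. Called transcripts had a median SD within groups (log2) of 0.17 in contralateral muscles and 0.23 in trained ones. Over all tested transcripts the medians were 0.21 and 0.24. The SEs and adjusted p values of the main fit pool both kinds of muscle. The part of this difference in those values was not tested. Of 66 called transcripts named here, 8 passed with the 12 trained muscles alone and 29 to 59 with 1 muscle left out.

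Replicate numbers did not pair the muscles across times, since same-numbered muscles of 2 and 10 days had deviations that correlated at r = -0.09, 0.14 and -0.12, and the replicate block on the number gave 143 calls. The animal block, with each muscle set against its own contralateral, gave 3 (1 higher, 2 lower). That comparison gave 1 with the values as deposited, 1 with a pseudocount of 0.1, 1 with no replicate block and 0 to 18 with single animals left out, 18 without the animal of 2-day replicate 1. The contralateral comparison gave 3 to 7 calls with single muscles left out, with 3 without 2-day replicate 3, 10-day replicate 2 or 10-day replicate 3. Some named transcripts that had not passed changed sign. With the animal block Tnnt3-202 to Tnnt3-205 gave -0.061, -0.045, -0.063 and -0.058, Col1a1 -0.39 and Col3a1 -0.25. Sums per gene gave -0.059 over all transcripts on the Myh4 symbol and -0.0067 over all of Tnnt3, so that the fall of single transcripts there is not seen in the sum. Myh3 ran from -0.18 without 10-day replicate 2 to 1.26 without 10-day replicate 3. With single muscles left out, also added after seeing the data, the difference in the shares of mitochondrially encoded mRNA and of the 10 most abundant transcripts moved by less than the spread between muscles. No depth can be read from TPM, so no limit from depth can be given.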

Other observations

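Genes that are expressed from a single parental copy in many tissues were among the rises. In a list of 18 imprinted genes, written after values were seen, 12 were tested and 3 were higher (Cdkn1c, Dlk1 and Igf2), none was lower, and the median was 0.31, beside 0.82% higher over all genes tested and 0.10 in contralateral muscles. Cdkn1c, an inhibitor of cyclin-dependent kinases, had values of 0.833, 0.983 and 2.02 at 2 days and 9.36, 7.12 and 4.34 at 10 days, a rise of 1.78 (SE 0.33, adjusted p = 0.0080) without overlap. Dlk1-202, a membrane protein of the Notch ligand family, had 1.35, 1.32 and 1.29 and then 2.84, 4.03 and 4.99, a rise of 1.07 (SE 0.24, adjusted p = 0.031). The number called among the 12 ran from 1 to 2 with single muscles left out.

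Among 13 tubulins tested, 10 had differences below 0, with a median of -0.38, and 2 were called, Tubb6 and Tubb4b, beside 0.55% lower over all genes tested. With single muscles left out 1 to 4 were called, 4 without 2-day replicate 1 and 1 without 2-day replicate 2 or 3. Among 13 genes of amino acid nitrogen handling 3 were lower, Ddah1, Glul and Gpt2, beside the same 0.55%, and the median was -0.10. At an unadjusted p under 0.05, 4 of them were lower and 3 higher, Got1, Got2 and Gpt. Among 10 genes of caveolae 2 were higher, Cav1 and Cavin2, beside 0.82% over all genes tested, and the median was 0.37 beside -0.02 in contralateral muscles. None of the 10 was called higher without 2-day replicate 2, 2-day replicate 3, 10-day replicate 1 or 10-day replicate 3, and 2 were without either of the other muscles. All 3 lists were written after values were seen.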
